A study of Homo sapiens with 8 samples.

Results

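10 chemokine genes were followed across every library of an RNA sequencing series on the nuclear envelope protein SUN2: CCL5, CXCL10, CXCL11, CXCL8, CXCL1, CXCL2, CXCL3, CCL2, CCL20 and CX3CL1. They are 10 of the 25369 genes in the count table, were chosen by symbol with results of these data already known, and 6 of them passed the filter on low counts. All libraries came from MDA-MB-231, an established human breast cancer cell line with a mesenchymal look that lacks hormone receptors. The groups, 2 libraries each, were unmodified WT cells, SUN2KO cells in which SUN2 was knocked out, cells carrying a SUN2 without residues 569 to 585 (Kashlid) and cells carrying a SUN2 without residues 1 to 139 (LBD). The first truncation was designed to cut SUN2 off from Nesprin-2G and the second to cut it off from the lamins. The labels leave unstated in which cells the truncated forms were made, how they were introduced and whether a line is a single clone. Whether replicates are separate cultures is also not stated. The p-values therefore describe the spread among these particular libraries, and that spread may be technical.

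Chemokines are small secreted proteins that set the direction in which cells crawl, each acting through G protein-coupled receptors on its target cells. CCL5 draws T cells and monocytes, and CXCL10 and CXCL11 draw activated T cells through CXCR3; interferons induce the latter pair, and viral sensing induces all of them. CXCL8, CXCL1, CXCL2 and CXCL3 carry an ELR motif, act on neutrophils through CXCR1 and CXCR2, and are classical targets of NF-kB and AP-1, with short-lived transcripts. CCL2 draws monocytes through CCR2, CCL20 draws CCR6-bearing lymphocytes and dendritic cells, and CX3CL1 is a membrane-anchored chemokine for CX3CR1. In breast cancer cells several of them are known as signals to the surrounding immune and stromal cells.

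Of the 10 genes, 7 had a promoter in the RefSeq table (GRCh38.p14): CXCL8, CXCL10, CXCL11, CXCL1, CXCL2, CXCL3 and CCL20. The 250 bases before the start site of the next 3 genes are shown because their group levels lay furthest apart, as ratios, among the tested members with a promoter there. Capitals mark matches to the letters of a kappaB site (GGAATTTCC, or GGAAATTCC when read from the other strand), an AP-1 site (TGANTCA) and an interferon response element (GAAA and GAAA set 2 bases apart). These motifs were picked after the sequences had been seen, and both strands were searched.
CXCL8 promoter, chr4:73740319-73740568, plus strand: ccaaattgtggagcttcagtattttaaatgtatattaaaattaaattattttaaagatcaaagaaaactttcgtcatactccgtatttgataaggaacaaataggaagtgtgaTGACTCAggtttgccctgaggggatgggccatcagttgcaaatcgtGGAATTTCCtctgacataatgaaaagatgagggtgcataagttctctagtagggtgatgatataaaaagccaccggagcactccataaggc
CXCL10 promoter, chr4:76023498-76023747, minus strand: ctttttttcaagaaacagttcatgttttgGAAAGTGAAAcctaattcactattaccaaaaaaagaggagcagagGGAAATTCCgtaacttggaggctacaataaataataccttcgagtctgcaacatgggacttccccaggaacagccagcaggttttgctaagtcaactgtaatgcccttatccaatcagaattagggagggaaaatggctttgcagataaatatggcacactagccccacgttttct
CXCL11 promoter, chr4:76036071-76036320, minus strand: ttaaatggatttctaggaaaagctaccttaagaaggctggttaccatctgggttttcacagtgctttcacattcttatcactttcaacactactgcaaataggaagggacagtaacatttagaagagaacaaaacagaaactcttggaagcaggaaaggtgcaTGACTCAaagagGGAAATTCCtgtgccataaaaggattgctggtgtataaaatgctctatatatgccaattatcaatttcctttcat

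The kappaB letters lay 91 to 83 bases before the start of CXCL8, 176 to 168 before that of CXCL10 and 75 to 67 before that of CXCL11. The AP-1 letters lay 137 to 131 bases before the start of CXCL8 and 87 to 81 before that of CXCL11, and the interferon element letters 221 to 212 bases before that of CXCL10. No match overlapped another. The promoters of CXCL1, CXCL2 and CXCL3 are near copies of each other, and a stretch of 60 bases around their kappaB match is shown so that they can be compared.
CXCL1, chr4:73869295-73869354, plus strand: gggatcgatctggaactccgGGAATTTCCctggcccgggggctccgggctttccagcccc
CXCL2, chr4:74099233-74099292, minus strand: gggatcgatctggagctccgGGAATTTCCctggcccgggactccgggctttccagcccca
CXCL3, chr4:74038728-74038787, minus strand: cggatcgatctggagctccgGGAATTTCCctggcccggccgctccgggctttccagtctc

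Over the whole window, the promoters were identical at 82.3% of aligned bases between CXCL1 and CXCL2, 86.8% between CXCL1 and CXCL3, and 83.3% between CXCL2 and CXCL3. The kappaB letters were found in 6 of the 7 promoters, all but that of CCL20, and in 145 of 35116 promoters of the RefSeq table (0.413%). These letters were picked after the promoters had been seen, and CXCL1, CXCL2 and CXCL3 are near copies. No enrichment is therefore read from these counts. AP-1 letters stood in 6.57% of those promoters and interferon element letters in 3.02%. A match describes the sequence and is not a measured binding site.

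Total counts per library lay between 16570099 and 18814795, and 14016 genes passed the filter. The targeted gene SUN2 (chromosome 22, 39130719 to 39151467 on hg19) was counted 1408 and 1441 times in WT, 474 and 564 times in SUN2KO, 643 and 603 times in Kashlid and 562 and 579 times in LBD. Its log2 fold changes against WT were -1.56 ± 0.08 (SE of the fit), -1.19 ± 0.08 and -1.30 ± 0.08 in that order (Benjamini-Hochberg adjusted p = 1.01e-11, 2.28e-10 and 9.22e-11 by the quasi-likelihood test of edgeR), so both truncation groups also had less SUN2 transcript than WT. All 7 markers of MDA-MB-231 were above 1 CPM (counts scaled to the TMM-adjusted library size) on average. Of 5 further markers listed as absent or low for this line, ERBB2 and CDH1 also exceeded 1 CPM on average. The group means of ERBB2 ran from 49.1 CPM (WT) to 56.4 CPM (SUN2KO). Those of CDH1 ran from 0.581 CPM (WT) to 1.45 CPM (Kashlid). ESR1, PGR and GATA3 stayed below 1 CPM on average. Of 10 leukocyte markers, CD3E, CD3D and MS4A1 were at 0, PTPRC had 25 counts in all libraries together, and CD68 alone exceeded 1 CPM on average. Because of CD68, the summed level of the leukocyte list was 17.4 to 19.3 CPM in WT, 32.9 to 33.2 in SUN2KO, 36.3 to 40.5 in Kashlid and 42.4 to 43.8 in LBD. The 7 fibroblast markers summed to 252 to 254 CPM in WT and 159 to 184 in the other groups, with PDGFRA at 0, and the 5 endothelial markers to 2.43 to 8.71 CPM, with KDR at 0. HEK293T cells were also grown for the study, and 7 of their markers summed to 59.1 to 74.4 CPM. Most of this was CDH2, with group means from 51.2 CPM (Kashlid) to 58.1 CPM (WT). Only TUBB2B and GPM6B also exceeded 1 CPM on average. PAX2, NEFL and NEFM had 1, 5 and 3 counts in all libraries together. LIN28B was at 0 CPM in WT and at 0.754, 0.496 and 0.676 in SUN2KO, Kashlid and LBD. The part of any of these lists in the chemokine values was not tested.

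Kashlid replicate 1 stood apart from Kashlid replicate 2 for CXCL8, CXCL2 and CXCL3, and the Kashlid fold changes of these 3 genes are given with and without it. Over all genes tested, the median absolute log2 difference between the 2 libraries was 0.119 in Kashlid and 0.0910 to 0.0992 in the other groups. The comparisons of SUN2KO, Kashlid and LBD with WT use the same WT libraries, and those of Kashlid and LBD with SUN2KO share the SUN2KO libraries. The values of the members chose them, so they are descriptions and carry no p-value.

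The 3 T cell-attracting chemokines shared a pattern: low in SUN2KO, intermediate in WT and high in both truncation groups. CCL5 (chromosome 17, 34198496 to 34207377 on hg19) was read 260 and 305 times in the WT libraries, 72 and 71 times in those of SUN2KO, 740 and 764 times in Kashlid and 658 and 833 times in LBD. No SUN2KO library reached WT, and no WT library reached either truncation group. The WT mean was 16.4 ± 1.32 CPM (SD, n = 2), against 3.86 ± 0.0574 for SUN2KO, 43.8 ± 1.43 for Kashlid and 43.9 ± 8.30 for LBD. SUN2KO thus held 23.5% of the WT level of CCL5, Kashlid 267% and LBD 268%. The log2 fold change from WT was -2.09 ± 0.17 (SE of the fit) for SUN2KO and 1.42 ± 0.12 for each truncation group. These libraries are bulk RNA, in which fewer cells making a transcript and less transcript per cell cannot be told apart.

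CXCL10 (chromosome 4, 76942269 to 76944689) was sparse: WT gave 9 and 7 counts, SUN2KO 1 and 0, Kashlid 46 and 35, and LBD 24 and 44. The SUN2KO libraries were below the WT libraries, and these were below all 4 truncation libraries. Mean levels were 0.466 ± 0.0971 CPM in WT, 2.36 ± 0.429 in Kashlid and 2.01 ± 0.879 in LBD. With 16 counts in WT against 1 in SUN2KO, the ratio of WT to SUN2KO was 17.2, with a 95% counting interval from 2.68 to 723. The width of that interval is the precision that a single SUN2KO read allows, and it covers counting error only. Kashlid and LBD exceeded WT by 2.32 ± 0.51 and 2.09 ± 0.51 on the log2 scale.

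CXCL11 (chromosome 4, 76954840 to 76957350) had 10 and 16 counts in WT and a single count in each SUN2KO library, against 50 counts in each Kashlid library and 44 and 48 in those of LBD. The order of the groups was that of CXCL10, again without overlap between SUN2KO, WT and the truncation groups. The level was 0.752 ± 0.222 CPM in WT, 2.91 ± 0.0297 in Kashlid and 2.71 ± 0.230 in LBD. WT held 14.0 times the SUN2KO level, with a 95% counting interval from 3.51 to 122 (26 against 2 counts). The log2 fold change against WT was 1.94 ± 0.37 in Kashlid and 1.83 ± 0.38 in LBD.

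**Figure D1:**
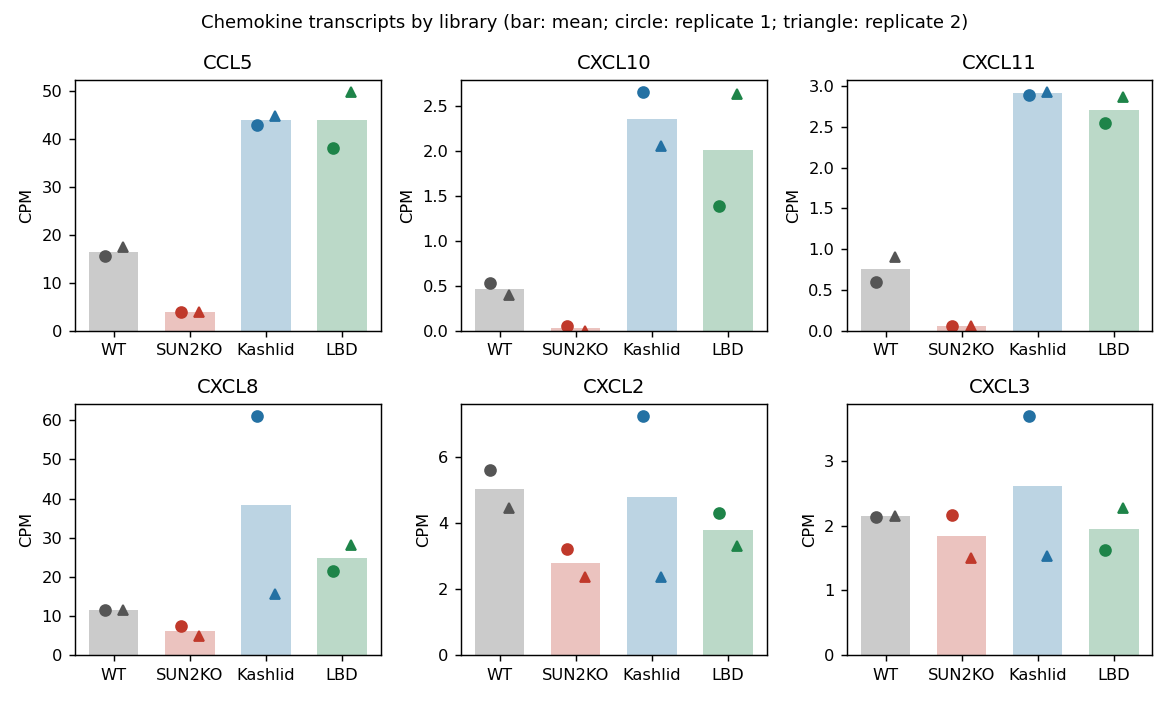
CPM of the 6 chemokines that passed the filter, with the group on the horizontal axis, a bar for the mean of 2 libraries, a circle for replicate 1 and a triangle for replicate 2; each panel has its own vertical scale from 0. CCL5, CXCL10 and CXCL11 are lowest in SUN2KO and highest in Kashlid and LBD, while the Kashlid libraries of CXCL8, CXCL2 and CXCL3 lie far apart, with 1057 and 265 counts of CXCL8.

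CXCL8, the neutrophil chemokine also called interleukin-8, had the second highest count of the set. CXCL8 (chromosome 4, 74606223 to 74609433) gave 195 and 203 counts from WT, 138 and 91 from SUN2KO, 1057 and 265 from Kashlid, and 373 and 469 from LBD. SUN2KO lay below WT and both truncation groups above it, and the LBD libraries lay between the Kashlid libraries. Mean levels were 11.6 ± 0.0423 CPM for WT, 6.18 ± 1.82 for SUN2KO, 38.3 ± 32.2 for Kashlid and 24.8 ± 4.57 for LBD. In SUN2KO the log2 fold change of CXCL8 was -0.90 ± 0.44 and in LBD it was 1.10 ± 0.37. In Kashlid it was 1.73 ± 0.36, and 0.43 when replicate 1 or 2.40 when replicate 2 was left out. The SUN2KO value of CXCL8 was -1.23 without SUN2KO replicate 1 and -0.63 without SUN2KO replicate 2.

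CXCL2 (chromosome 4, 74962754 to 74964997), an ELR chemokine of the same neutrophil receptors, gave 94 and 78 counts from WT, 59 and 44 from SUN2KO, 125 and 40 from Kashlid, and 74 and 55 from LBD. SUN2KO and LBD lay below WT without overlap, and the Kashlid libraries lay on either side of WT. The log2 fold change of CXCL2 from WT was -0.85 ± 0.35 in the knockout, -0.06 ± 0.33 in Kashlid and -0.40 ± 0.34 in LBD. Without Kashlid replicate 1 the Kashlid value was -1.09, and without Kashlid replicate 2 it was 0.53. The SUN2KO value of CXCL2 was -1.07 without SUN2KO replicate 1 and -0.65 without SUN2KO replicate 2. On average CXCL2 stood at 5.01 ± 0.818 CPM in WT and 2.78 ± 0.586 in SUN2KO, which is 55.5% of WT.

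CXCL3 (chromosome 4, 74902312 to 74904490) gave 36 and 38 counts from WT, 40 and 28 from SUN2KO, 64 and 26 from Kashlid, and 28 and 38 from LBD. All 3 modified groups overlapped WT in CPM. Its log2 fold changes against WT were -0.23 ± 0.37, 0.28 ± 0.36 and -0.15 ± 0.37 in SUN2KO, Kashlid and LBD, each smaller than its SE. The Kashlid value of CXCL3 was -0.49 without Kashlid replicate 1 and 0.78 without replicate 2. Its SUN2KO value was -0.51 without SUN2KO replicate 1 and 0.01 without SUN2KO replicate 2. CXCL1, CXCL2 and CXCL3 arose from copies of a single gene. Their longest coding transcripts in GENCODE v29 were identical at 90.6% of aligned bases for CXCL1 and CXCL2 and 83.4% for CXCL2 and CXCL3, so reads could have been shared or dropped between them and their counts are uncertain to that extent.

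**Figure D2:**
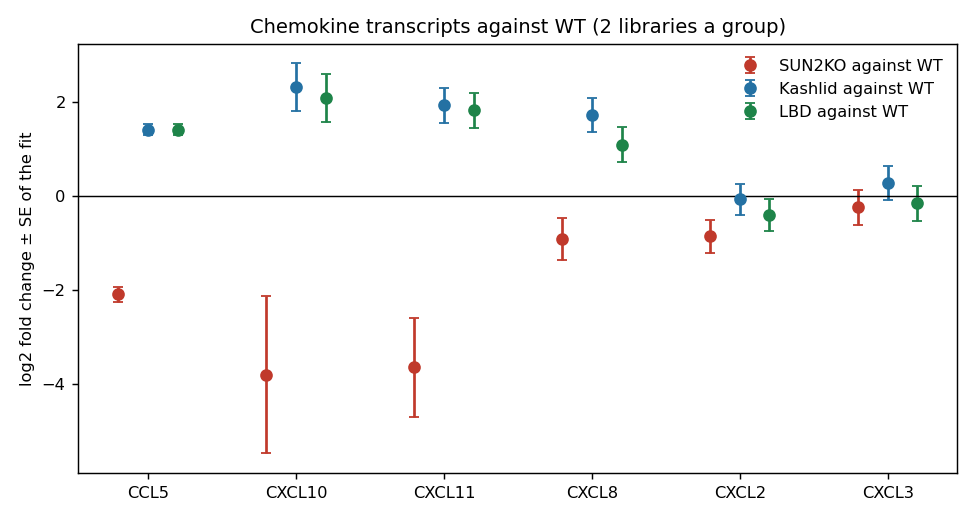
Log2 fold change against WT (vertical axis, with the SE of the fit as bars) of the 6 chemokines that passed the filter, in SUN2KO, Kashlid and LBD. CCL5 lies at -2.09 in SUN2KO and 1.42 in both truncation groups, and the SUN2KO values of CXCL10 and CXCL11, which rest on 1 and 2 counts, have the widest bars.

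Kashlid replicate 1 was the higher library for all 3 ELR chemokines. It exceeded replicate 2 by 1.97 on the log2 CPM scale for CXCL8, by 1.58 for CXCL2 and by 1.22 for CXCL3. Of all genes tested, 99.8%, 99.4% and 98.5% differed less between these 2 libraries. IL6, the gene of the inflammatory cytokine interleukin-6, differed by 1.81 in the same direction, with 574 and 160 counts. TNFAIP3, the gene of the NF-kB inhibitor A20, differed by 0.80, with 1136 and 644 counts. The other 3 chemokines did not share this difference: it was -0.07 for CCL5, 0.36 for CXCL10 and -0.02 for CXCL11. In SUN2KO too, replicate 1 was higher than replicate 2 for CXCL8, CXCL2 and CXCL3, by 0.60, 0.42 and 0.49. Of all genes tested, 94.7%, 90.1% and 92.2% differed less between the SUN2KO libraries.

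**Figure D3:**
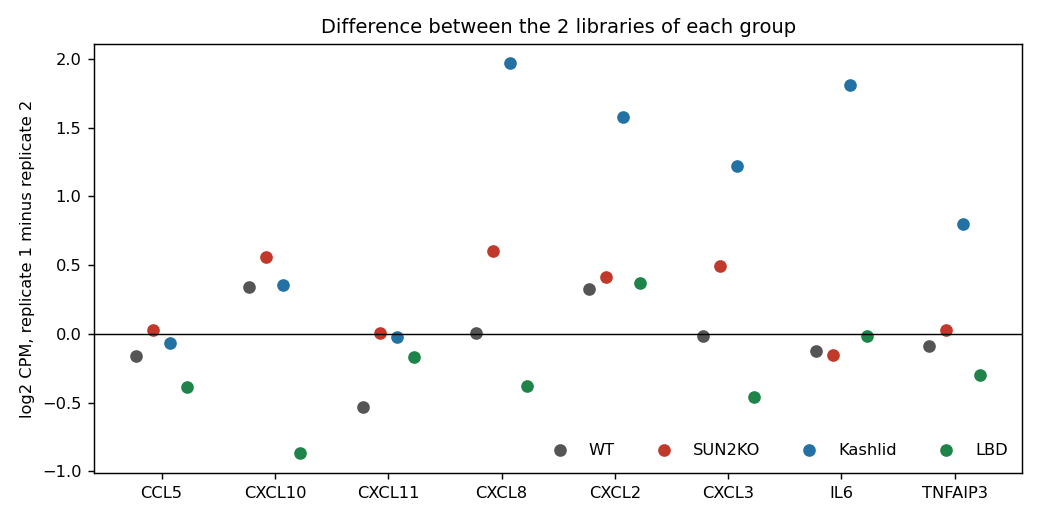
Log2 CPM of replicate 1 minus that of replicate 2 (vertical axis) within each group, for the 6 chemokines, IL6 and TNFAIP3; each point is the difference of 1 group. The Kashlid points reach 1.97 for CXCL8 and 1.81 for IL6, against -0.07 for CCL5.

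CXCL1, CCL2, CCL20 and CX3CL1 were at or near 0 in every library and did not pass the filter. CXCL1 (chromosome 4, 74735109 to 74737019) had 5 counts in the 8 libraries together, none of them in SUN2KO, where a count of 0 allows up to 0.0809 CPM. CCL2 (chromosome 17, 32582296 to 32584220) had 2 and 1 counts in SUN2KO, 1 in Kashlid replicate 1 and none elsewhere. CCL20 (chromosome 2, 228678558 to 228682280) had 3 counts in total, 1 in WT and 2 in Kashlid. CX3CL1 (chromosome 16, 57406414 to 57418956) had 9, of which 2 were in WT, 4 in SUN2KO and 3 in LBD. No difference between groups was detectable for these 4 genes at this depth.

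Passing the test describes how the set was chosen and is counted here only to account for every member. In SUN2KO against WT, 3 of the 6 tested members passed, all lower (CCL5, CXCL10 and CXCL11), where 36.7% of all genes passed and 19.1% were lower. In Kashlid against WT, 4 passed, all higher (the same 3 genes and CXCL8), where 44.5% of all genes passed and 21.7% were higher. In LBD against WT these 4 genes passed, all higher, where 40.0% of all genes passed and 19.0% were higher. Groups did not overlap for 5, 4 and 5 members in these comparisons, and for 69.4%, 71.1% and 70.0% of all genes tested. Without Kashlid replicate 1, 5 members passed in SUN2KO against WT, with CXCL8 and CXCL2 added at nearly unchanged log2 fold changes of -0.90 and -0.85, and leaving out Kashlid replicate 2 gave 5 as well. CXCL10 was not tested in a fit of SUN2KO and WT alone, where its counts failed the filter. It passed the filter only through the truncation groups, where it was high. Nothing is therefore read from its calls in SUN2KO, Kashlid or LBD against WT, which the counts above include. CXCL8 no longer passed in Kashlid without Kashlid replicate 1, nor in LBD without LBD replicate 2 or either WT replicate, and CXCL10 no longer passed in SUN2KO without SUN2KO replicate 2. CXCL2 passed as lower in Kashlid than in WT without Kashlid replicate 1.

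Over all genes tested, the median log2 fold change against WT was 0.00265, 0.00539 and 0.00311 for SUN2KO, Kashlid and LBD; TMM scaling sets this centre near 0, and a change common to most genes would not show. The authors' deposited table gave log2 fold changes of -2.09, 1.42 and 1.42 for CCL5 and -0.90, 1.73 and 1.10 for CXCL8 in SUN2KO, Kashlid and LBD against WT. At an adjusted p of 0.05 the authors' deposited table had CXCL8 past the threshold in SUN2KO and not in Kashlid, the opposite of the calls counted here, while in LBD both had it past the threshold.

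Set against the knockout, both truncation groups held more of 4 chemokines. CCL5 was 3.50 ± 0.16 higher in Kashlid than in SUN2KO and 3.51 ± 0.16 higher in LBD on the log2 scale. For CXCL8 these differences were 2.63 ± 0.40 and 2.0 ± 0.41, and the former was 1.33 without Kashlid replicate 1 and 3.31 without replicate 2. CXCL10 had 81 counts in Kashlid and 68 in LBD against 1 in SUN2KO, which are ratios of 87.5 and 74.1 with 95% counting intervals from 15.3 to 3497 and from 12.9 to 2971. For CXCL11 the ratios were 54.0 and 50.2, with intervals from 14.6 to 452.02 and from 13.5 to 420.4. These intervals cover counting error only and leave out the spread between libraries. They are not a test, since the members were chosen with results of these data known. CXCL2 differed from SUN2KO by 0.79 ± 0.35 in Kashlid and 0.45 ± 0.36 in LBD, and CXCL3 by 0.51 ± 0.36 and 0.08 ± 0.38. Of the 6 tested members, 4 passed in each comparison, all higher. CXCL10 is among these 4, but it passed the filter only through the truncation groups, and nothing is read from its call. Of all genes, 18.0% passed in Kashlid against SUN2KO (8.92% of all genes higher) and 13.5% in LBD against SUN2KO (6.69% higher). CXCL8 no longer passed in LBD against SUN2KO without SUN2KO replicate 2, and CXCL2 and CXCL3 passed in Kashlid against SUN2KO without Kashlid replicate 2, at 1.38 and 1.01. Without Kashlid replicate 1 these differences of CXCL2 and CXCL3 were -0.24 and -0.26. Groups did not overlap for 4 and 5 members, and for 56.8% and 54.6% of all genes.

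Between the truncation groups no tested chemokine passed, where 2.91% of all genes did. LBD minus Kashlid was 0.00 ± 0.10 for CCL5, -0.23 ± 0.36 for CXCL10 and -0.11 ± 0.29 for CXCL11 on the log2 scale. It was -0.34 ± 0.34 for CXCL2 and -0.43 ± 0.36 for CXCL3, which became 0.69 and 0.35 without Kashlid replicate 1 and both -0.93 without Kashlid replicate 2. For CXCL8 it was -0.63 ± 0.32 with all libraries, 0.67 without Kashlid replicate 1 and -1.30 without Kashlid replicate 2, so that a single library set the sign for all 3 ELR chemokines. CXCL11 alone showed no overlap between the 2 groups (50 and 50 counts against 44 and 48), which 43.8% of all genes also did not.

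Levels of different genes were compared per kilobase of the longest coding transcript. In WT the order was CCL5 at 12 CPM per kb, CXCL8 at 6.78, CXCL2 at 4.11, CXCL3 at 2.0, CXCL11 at 0.468 ± 0.138 and CXCL10 at 0.397 ± 0.0826, and the last 2 did not differ beyond their spread. In SUN2KO CXCL8 led with 3.62 ± 1.07 CPM per kb, ahead of CCL5 with 2.82 ± 0.0421, CXCL2 with 2.28 ± 0.481 and CXCL3 with 1.71 ± 0.434, where CXCL8 and CCL5 differed by less than the SD of CXCL8 and the libraries of CXCL2 overlapped those of CXCL3. CXCL11 and CXCL10 came last there, at 0.0336 and 0.0230 CPM per kb. In Kashlid CCL5 stood first at 32.1 ± 1.05 CPM per kb, then CXCL8 at 22.5 ± 18.9, CXCL2 at 3.93 ± 2.83, CXCL3 at 2.43 ± 1.43, CXCL10 at 2.0 ± 0.365 and CXCL11 at 1.81 ± 0.0185. The CXCL8 libraries lay on either side of those of CCL5, and from CXCL2 to CXCL11 neighbours did not differ beyond their spread. LBD had the same leading pair, CCL5 at 32.2 ± 6.08 and CXCL8 at 14.5 ± 2.68 CPM per kb, followed by CXCL2 at 3.11 ± 0.576 and by CXCL3, CXCL10 and CXCL11 at 1.81 ± 0.429, 1.71 ± 0.747 and 1.69 ± 0.143, of which the last 3 overlapped.

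Across the 8 libraries, log2 CPM of CCL5 had a Pearson r of 0.997 with CXCL11 and 0.985 with CXCL10. CXCL8 had an r of 0.849 with CCL5, 0.615 with CXCL2 and 0.668 with CXCL3, and CXCL2 had 0.783 with CXCL3. CCL5 had 0.334 with CXCL2 and 0.256 with CXCL3. These values describe libraries that fall into 4 groups of 2 and carry no p.

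Among 10864 other genes with a mean of at least 5 CPM, the pattern of CCL5 over the 8 libraries was most like that of RSAD2 (r = 0.993), the gene of the antiviral enzyme viperin. RSAD2 gave 41 and 43 counts from WT, 4 and 6 from SUN2KO, 174 and 156 from Kashlid, and 146 and 132 from LBD, so its groups too ran from SUN2KO over WT to the truncation groups without overlap. Next came EFNB2, a membrane ligand of Eph receptors (r = 0.988), and HERPUD1, a gene of the endoplasmic reticulum stress response (r = 0.987). EFNB2 spanned a narrower range, from 7.23 CPM for SUN2KO over 10.8 for WT to 14.5 for Kashlid and 15 for LBD. For CXCL8 the most alike were IL11 (r = 0.987), a cytokine of the interleukin-6 family, RREB1 (r = 0.973), a zinc finger transcription factor, and USP36 (r = 0.968), a deubiquitinase. IL11 ran from 9.90 CPM in SUN2KO over 15 ± 0.465 in WT to 20.6 in LBD and 24.2 ± 9.55 in Kashlid, and its Kashlid libraries were far apart like those of CXCL8. For CXCL10 they were EFNB2 (r = 0.992), DICER1 (r = 0.988), the gene of the enzyme that cuts microRNA precursors, and EHBP1L1 (r = 0.983). DICER1 ran only from 134 CPM in SUN2KO to 152 in Kashlid, and EHBP1L1 from 204 to 234. CXCL10 itself rests on 1 and 0 counts in SUN2KO.

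Of 38 other chemokine genes in the table, 24 had no count in any library and 3 passed the filter. Against WT, 36.7% of all genes passed the test in SUN2KO, 44.5% in Kashlid and 40.0% in LBD. CXCL16, a transmembrane chemokine for CXCR6, gave 175 and 178 counts from WT, 85 and 92 from SUN2KO, 55 and 76 from Kashlid, and 100 and 67 from LBD. CXCL16 fell in all 3 groups, with log2 fold changes of -1.10 ± 0.20, -1.42 ± 0.21 and -1.06 ± 0.20 (adjusted p = 0.000153, 9.25e-06 and 0.0002, edgeR). CCL28, a mucosal chemokine for CCR10, had 7 and 3 counts in WT against 28 and 42, 26 and 30, and 16 and 21. Its log2 fold changes were 2.67 ± 0.57, 2.46 ± 0.58 and 1.88 ± 0.60. CCL28 passed the test in all 3 groups, but it passed the filter only through those groups, where it was high. Nothing is therefore read from its calls. Without WT replicate 1 these values of CCL28 were 3.41, 3.21 and 2.63, and without WT replicate 2 they were 2.16, 1.95 and 1.37. The LBD call of CCL28 was lost without LBD replicate 2 (adjusted p = 0.0733) or WT replicate 2 (0.117), and each of these leaves 1 of the 3 chemokines called in LBD. The third, CCL26, named after its values had been seen, had 9 counts in WT and 20 to 44 in the other groups and passed in SUN2KO and LBD. CCL26 too passed the filter only through groups other than WT, and nothing is read from its calls. So CXCL16 went down in the 2 groups in which CCL5 was high as well as in the knockout.

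Receptors of several members were at or near 0: CXCR1 and CX3CR1 had no count, CXCR2 had 1, CCR2 had 2, CXCR3 had 4 and CCR6 had 41 in all libraries together. Of 25 receptor and decoy or co-receptor genes, 9 were tested. Shares of all genes passing against WT were 36.7%, 44.5% and 40.0% in SUN2KO, Kashlid and LBD. Against WT 1 was higher and 3 lower in SUN2KO, 1 higher and 2 lower in Kashlid, and 2 higher and 2 lower in LBD, with medians of -0.45, -0.18 and -0.01 on the log2 scale. ACKR3, a scavenging receptor that binds CXCL11 and CXCL12, had 114 and 165 counts in WT against 30 and 27, 16 and 20, and 14 and 33. ACKR3 fell by 2.39 ± 0.31, 2.94 ± 0.35 and 2.54 ± 0.33 on the log2 scale (adjusted p = 2.41e-06, 2.79e-07 and 1.37e-06, edgeR). Its LBD value was -3.30 without LBD replicate 2 and -2.03 without LBD replicate 1. CCR10, a receptor of CCL28, rose in all 3 groups by 1.22 ± 0.24, 1.33 ± 0.24 and 1.14 ± 0.24, with adjusted p up to 0.000699. CXCR4, the receptor of CXCL12 and the most counted chemokine receptor here, fell by 0.35 ± 0.08 in SUN2KO (adjusted p = 0.00155, and 0.0521 without WT replicate 2) and by 0.40 ± 0.08 in LBD (adjusted p = 0.00048), and was -0.18 ± 0.08 in Kashlid (adjusted p = 0.0797, and 0.00376 without Kashlid replicate 1 or 0.0366 without WT replicate 1). SDC4, a syndecan whose heparan sulfate holds chemokines at the cell surface, fell by 0.45 ± 0.11 in SUN2KO (adjusted p = 0.00224) and rose by 0.36 ± 0.10 in LBD (adjusted p = 0.00898, and 0.182 without LBD replicate 2 or 0.0647 without WT replicate 1). In Kashlid SDC4 was at 0.24 ± 0.10 (adjusted p = 0.0677, and 8.12e-06 without Kashlid replicate 2).

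CXCL10 and CXCL11 belong to the interferon-stimulated genes. Of 32 others tested, 25 rose and 1 fell in Kashlid against WT, with a median log2 fold change of 1.53, and 27 rose and 1 fell in LBD, with a median of 1.55. In SUN2KO 7 rose, 7 fell and 18 did not pass, with a median of -0.04. Among all genes tested, 21.7% passed as higher in Kashlid and 19.0% in LBD, and 36.7% passed in either direction in SUN2KO. This list, like the other lists, was chosen with earlier results of these data known, so no enrichment is read from its counts. OAS2, a sensor of double-stranded RNA, gave 45 and 25 counts from WT, 11 and 14 from SUN2KO, 275 and 302 from Kashlid, and 299 and 324 from LBD. OAS2 fell by 1.58 ± 0.37 in SUN2KO (adjusted p = 0.00111) and rose by 3.04 ± 0.22 and 3.17 ± 0.22 in Kashlid and LBD (edgeR). RSAD2 fell by 3.14 ± 0.45 in SUN2KO (adjusted p = 1.06e-06) and rose by 1.97 ± 0.21 and 1.74 ± 0.21 (adjusted p = 1.06e-07 and 9.40e-07). IFI44L and MX2, both induced by type I interferon, rose in Kashlid by 2.73 ± 0.22 and 3.05 ± 0.60 and in LBD by 2.50 ± 0.22 and 2.98 ± 0.61. In SUN2KO IFI44L was at -0.12 (adjusted p = 0.757, edgeR) and MX2 at -0.50. MX2 had 5 and 3 counts in WT and 3 and 3 in SUN2KO. It passed the filter only through the truncation groups, where it was high. Nothing is read from the calls of MX2, which the counts above include. The member that fell in both truncation groups was BST2, a tether of enveloped viruses, by 0.39 and 0.53, named after its values had been seen.

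**Figure D4:**
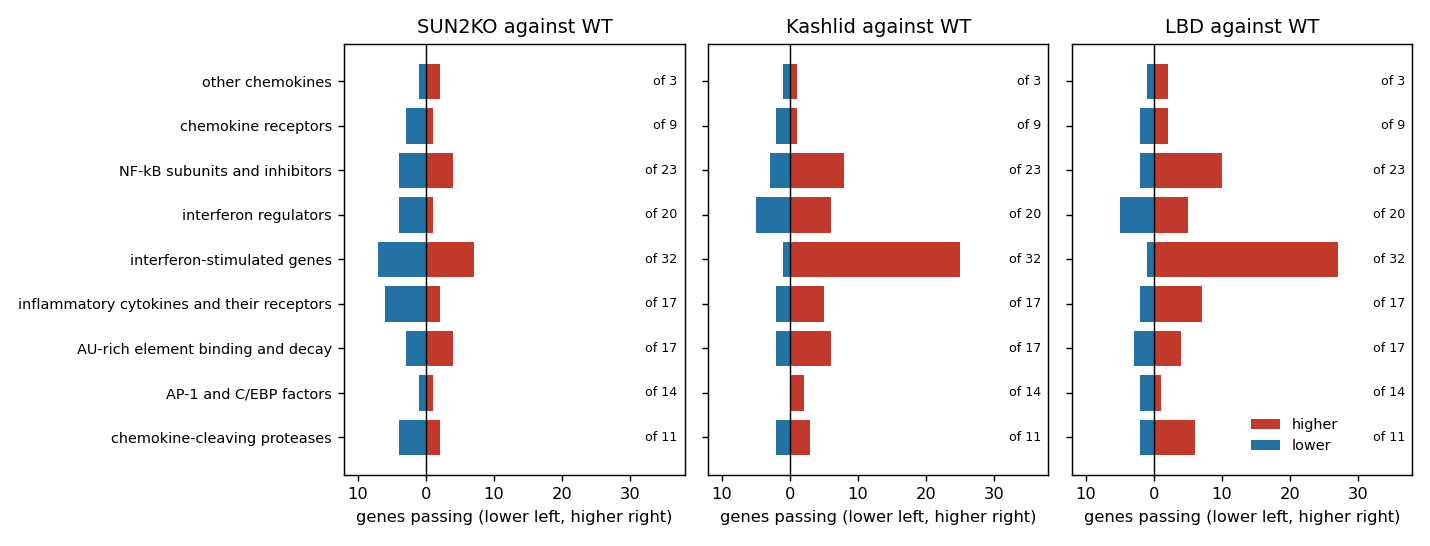
Number of genes of each list that were higher (red, to the right) or lower (blue, to the left) than WT at an adjusted p under 0.05, for SUN2KO, Kashlid and LBD; the number tested stands at the right of each panel. Of 32 interferon-stimulated genes, 25 were higher in Kashlid and 27 in LBD, against 7 in SUN2KO. The lists were chosen with earlier results of these data known, so no enrichment is read from these numbers.

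Of 20 tested regulators of the interferon response, 1 was higher and 4 lower in SUN2KO, and 6 higher and 5 lower in Kashlid. In LBD 5 were higher and 5 lower, and the medians of these groups were 0.01, -0.07 and 0.05. Shares of all genes passing were 36.7%, 44.5% and 40.0%. IRF1, a transcription factor for CXCL10 and other targets, rose by 0.56 ± 0.13 in Kashlid and 0.64 ± 0.13 in LBD (adjusted p = 0.00109 and 0.000359) and was at 0.17 in SUN2KO (adjusted p = 0.329). IFNAR1, a subunit of the type I interferon receptor, fell by 0.45 ± 0.08, 0.69 ± 0.08 and 0.59 ± 0.08 in SUN2KO, Kashlid and LBD. JAK1, the kinase of that receptor, fell by 0.18 ± 0.05, 0.59 ± 0.05 and 0.43 ± 0.05 (adjusted p = 0.0112, 2.61e-08 and 2.64e-06), and its SUN2KO call was lost without SUN2KO replicate 1, SUN2KO replicate 2 or WT replicate 1 (adjusted p = 0.0518, 0.0925 and 0.0925). SOCS3, a feedback inhibitor of cytokine receptors, rose by 0.67 ± 0.09 in Kashlid (adjusted p = 3.44e-06) and by 0.24 ± 0.09 in LBD (adjusted p = 0.0418, and 0.0542 to 0.297 without either LBD replicate 1, WT replicate 2 or 1 of the SUN2KO libraries). The SUN2KO count of 5 changed to 2 without SUN2KO replicate 2, to 3 without SUN2KO replicate 1 or WT replicate 1, and to 8 without either Kashlid library.

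Among 23 genes of NF-kB subunits, kinases and inhibitors, 4 were higher and 4 lower in SUN2KO, and 8 higher and 3 lower in Kashlid. In LBD 10 were higher and 2 lower, and the medians of these groups were 0.14, 0.18 and 0.26. Shares of all genes passing were 36.7%, 44.5% and 40.0%. TNFAIP3, itself an NF-kB target that dampens the pathway, gave 1830 and 2038 counts from WT, 476 and 469 from SUN2KO, 1136 and 644 from Kashlid, and 692 and 823 from LBD. TNFAIP3 fell in all 3 groups, by 2.14 ± 0.15, 1.12 ± 0.14 and 1.33 ± 0.14 (adjusted p = 1.01e-09, 1.78e-06 and 2.62e-07), also in the groups in which CCL5 and CXCL8 were above WT. BIRC3, an NF-kB target that blocks cell death, rose by 0.77 ± 0.14, 0.72 ± 0.14 and 0.58 ± 0.14. Its Kashlid value was 0.33 without Kashlid replicate 1 and 1.03 without Kashlid replicate 2. RELB, a subunit of the noncanonical arm, rose by 0.73 ± 0.24 in Kashlid and 0.85 ± 0.24 in LBD (adjusted p = 0.0161 and 0.00631, edgeR). In SUN2KO RELB was at 0.49 (adjusted p = 0.114, edgeR). NFKBIZ, a nuclear cofactor needed for IL6, rose by 0.47 ± 0.18 in Kashlid (adjusted p = 0.036) and 0.65 ± 0.18 in LBD (adjusted p = 0.0055). The Kashlid calls of RELB and NFKBIZ were lost without Kashlid replicate 1 (adjusted p = 0.192 and 0.237) or WT replicate 2 (0.109 and 0.239), and their LBD calls without LBD replicate 2 (0.208 and 0.214) or WT replicate 2 (0.0626 and 0.0794). Without WT replicate 2 the Kashlid count of 11 became 7.

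Of 17 inflammatory cytokine and receptor genes, 2 were higher and 6 lower in SUN2KO, and 5 higher and 2 lower in Kashlid. In LBD 7 were higher and 2 lower, and the medians of these groups were -0.14, 0.11 and 0.23. Shares of all genes passing were 36.7%, 44.5% and 40.0%. IL6 gave 113 and 129 counts from WT, 82 and 92 from SUN2KO, 574 and 160 from Kashlid, and 195 and 191 from LBD. IL6 rose by 1.60 ± 0.33 in Kashlid (adjusted p = 0.000488), a call lost without Kashlid replicate 1 (0.42, adjusted p = 0.0779; 2.2 without Kashlid replicate 2), and was at 0.69 ± 0.35 in LBD (adjusted p = 0.127) and -0.58 ± 0.39 in SUN2KO (adjusted p = 0.264). These last 2 values of IL6 passed without either Kashlid library, at 0.69 and -0.58. IL1A, an alarm cytokine, rose by 1.68 ± 0.38 in Kashlid (adjusted p = 0.000774) and 1.08 ± 0.39 in LBD (adjusted p = 0.0305, and 0.0542 to 0.224 without LBD replicate 2, WT replicate 1 or WT replicate 2). IL1B, which induces CXCL8 in many cells, had 12 and 14 counts in WT. It rose by 1.75 ± 0.40 in LBD (adjusted p = 0.000902, edgeR) and was at 0.97 in Kashlid (adjusted p = 0.0604). In SUN2KO IL1A was at 0.51 and IL1B at 0.58 (adjusted p = 0.355 and 0.306, edgeR). CSF1, the growth factor of macrophages, fell by 0.86 ± 0.20, 0.83 ± 0.20 and 0.57 ± 0.20 (adjusted p = 0.00197, 0.00214 and 0.0252), and its LBD call was lost without LBD replicate 2, WT replicate 1 or WT replicate 2 (adjusted p = 0.288, 0.132 and 0.0669). Without any of those 3 libraries the LBD count of 9 became 5.

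Short-lived chemokine transcripts such as CXCL8 carry AU-rich elements, and 17 genes that bind them or remove poly(A) tails were measured. Of these, 4 were higher and 3 lower in SUN2KO, 6 higher and 2 lower in Kashlid, and 4 higher and 3 lower in LBD. The medians of these groups were 0.04, 0.05 and 0.08, and the shares of all genes passing were 36.7%, 44.5% and 40.0%. ZFP36, the gene of the decay factor tristetraprolin, rose by 0.42 ± 0.13 in Kashlid (adjusted p = 0.0122, and 0.0782 without WT replicate 1) and 0.70 ± 0.13 in LBD (adjusted p = 0.000152). Its relative ZFP36L1 rose by 0.33 ± 0.10 in Kashlid (adjusted p = 0.0108), but stood at 0.06 without Kashlid replicate 1 (adjusted p = 0.549) and lost the call without WT replicate 1 (adjusted p = 0.0827). ZC3H12A, the RNase regnase-1, fell by 0.37 ± 0.10 in SUN2KO (adjusted p = 0.00591, and 0.0643 without SUN2KO replicate 1), and TIAL1, an AU-rich RNA-binding protein, rose by 0.37, 0.43 and 0.36 in the 3 groups. The SUN2KO count of 7 became 4 without SUN2KO replicate 1 or WT replicate 2, the Kashlid count of 8 became 5 without either WT library, and the LBD count of 7 became 4 without LBD replicate 2 and 3 without WT replicate 2.

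AP-1 and C/EBP factors, which bind the CXCL8 promoter beside NF-kB, numbered 14. Of these, 1 was higher and 1 lower in SUN2KO, 2 higher and 0 lower in Kashlid, and 1 higher and 2 lower in LBD. The medians of these groups were -0.03, 0.17 and 0.01, and the shares of all genes passing were 36.7%, 44.5% and 40.0%. CEBPA rose by 0.87 ± 0.15 in SUN2KO (adjusted p = 9.48e-05). JUNB rose by 0.44 ± 0.10 in Kashlid (adjusted p = 0.000861, edgeR) and 0.35 ± 0.10 in LBD (adjusted p = 0.00557, edgeR). The LBD call of JUNB was lost without LBD replicate 2, where the value was 0.22. Its Kashlid value was 0.21 without Kashlid replicate 1 and 0.64 without Kashlid replicate 2. JUN fell by 0.40 ± 0.13 in SUN2KO (adjusted p = 0.0209), a call lost without any of the SUN2KO or WT libraries (adjusted p from 0.0504 to 0.137), and its Kashlid value of 0.06 became -0.28 without Kashlid replicate 1 and 0.33 without Kashlid replicate 2. CEBPD fell by 0.53 ± 0.20 in LBD (adjusted p = 0.0397), and the call was lost without any of the LBD or WT libraries (adjusted p from 0.113 to 0.136). Leaving out 1 library moved these counts of 2, 2 and 3 to between 1 and 4 in SUN2KO, between 1 and 6 in Kashlid and between 1 and 4 in LBD: the highest came without Kashlid replicate 1 or 2, and the lowest without a SUN2KO, WT or LBD library.

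Of 11 tested genes of proteases that trim or destroy chemokines, 2 were higher and 4 lower in SUN2KO. In Kashlid 3 were higher and 2 lower, and in LBD 6 higher and 2 lower. The medians of these groups were 0.04, 0.08 and 0.17, and the shares of all genes passing were 36.7%, 44.5% and 40.0%. CTSS, the gene of cathepsin S, fell by 1.28 ± 0.23 in SUN2KO (adjusted p = 0.000151) and rose by 0.86 ± 0.19 in LBD (adjusted p = 0.00107), and was at 0.13 in Kashlid (adjusted p = 0.628). FAP, a fibroblast activation protease that is also on the fibroblast marker list, fell by 1.07, 1.54 and 1.24, and CTSL, the gene of cathepsin L, fell by 0.29, 0.75 and 0.45. The gene of carboxypeptidase M, an enzyme of the cell surface, rose by 1.81, 1.88 and 1.62.

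The genes CXCL8, CXCL1, CXCL3, CXCL2, CXCL10 and CXCL11 lie within 2.35 Mb of chromosome 4 (hg19). Of 23 genes in this span that are no members, 10 were tested. Shares of all genes passing against WT were 36.7%, 44.5% and 40.0% in SUN2KO, Kashlid and LBD. Against WT 1 was higher and 5 lower in SUN2KO, 3 higher and 5 lower in Kashlid, and 2 higher and 5 lower in LBD, with medians of -0.28, -0.34 and -0.31. CXCL6, PF4, PF4V1 and PPBP, chemokine genes next to CXCL8 and CXCL1, had 0 counts, CXCL5 had 1 and CXCL9, which adjoins CXCL10, had 2. EREG and EPGN, genes of growth factors for the EGF receptor, lie between CXCL2 and CXCL10. EREG rose in all 3 groups by 0.79 ± 0.11, 1.10 ± 0.11 and 0.95 ± 0.11, SUN2KO included, where CXCL8 and CXCL2 were at -0.90 and -0.85. EPGN rose by 0.62 ± 0.14 in Kashlid and 1.01 ± 0.14 in LBD and was at -0.30 in SUN2KO (adjusted p = 0.117). These neighbours were named after their values had been seen.

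**Figure D5:**
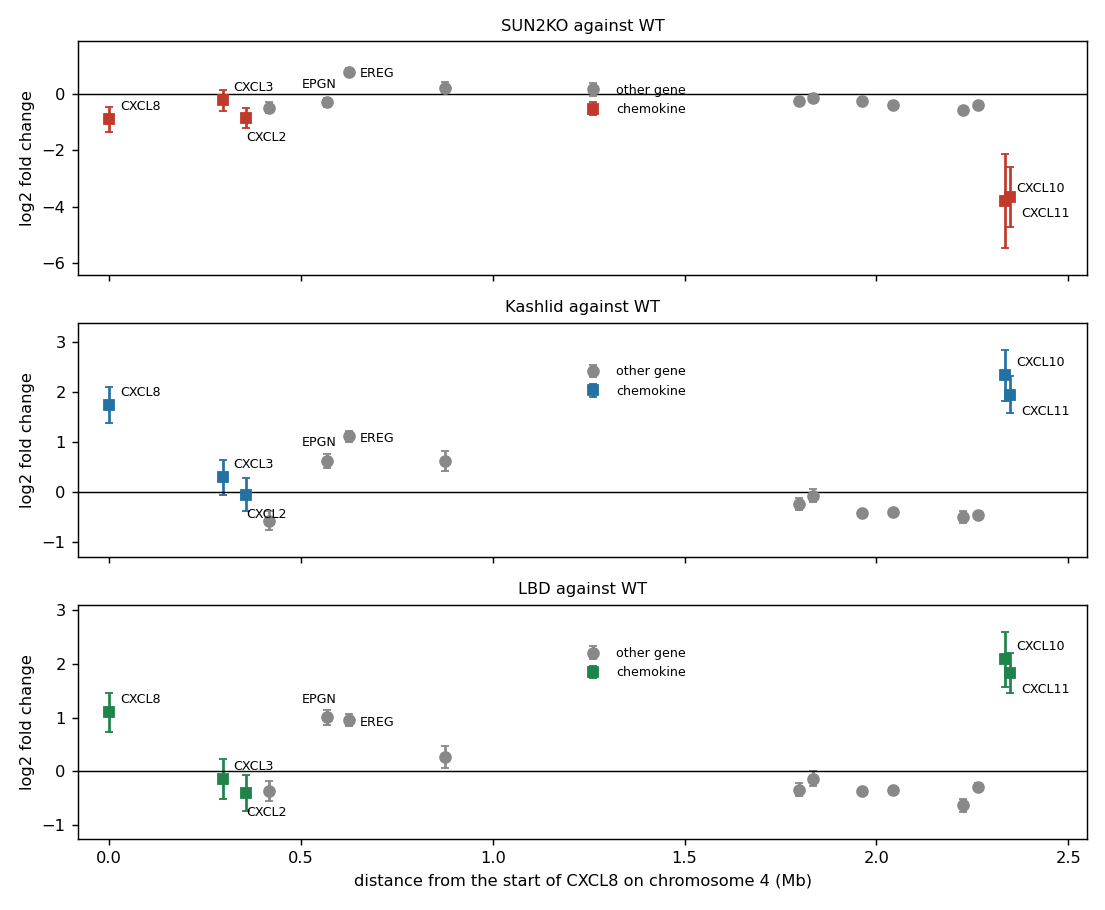
Log2 fold change against WT (vertical axis, with the SE of the fit as bars) of the 15 tested genes from CXCL8 to CXCL11, by their distance in Mb from the start of CXCL8, in 1 panel per group; squares are chemokines and grey circles other genes. CXCL10 and CXCL11 lie at the right end, at 2.32 and 1.94 in Kashlid, while the grey genes beside them lie below 0 in every panel.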

How the data were processed

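RNA-seq libraries of MDA-MB-231, 2 in each of 4 groups, were analysed, each made from 10000000 cells per the labels. Per the submitters' processing notes, the authors used Trim Galore, STAR 2.7.1a, bedtools 2.24.0, HTSeq and DESeq2 with hg19. The deposited counts are raw reads per gene; for the annotation version and the use of strand, the sources used here give no statement. Overlapping genes may therefore share reads. The authors also deposited log2 fold changes and p-values against WT in tables without column names. Their columns were identified by an r of 0.9992 with the values computed here and by Benjamini-Hochberg adjustment of the p-values. The 12 unnamed per-library columns were not used, and 0 rows named no gene.

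The counts were fitted with edgeR 4.0.16 (R 4.3.3), using filterByExpr (14016 of 25369 genes kept), TMM scaling, a model of the 4 groups over all 8 libraries (4 residual degrees of freedom) and the two-sided quasi-likelihood test. All 4 groups share 1 estimate of the spread of each gene, so an SE or p-value also reflects libraries outside its comparison. P-values were adjusted by Benjamini-Hochberg over all kept genes, with a threshold of 0.05. Steps were tested on simulated data. Log2 CPM for correlations used a prior count of 2. Ratios with 1 to 3 counts have exact 95% intervals. A count of 0 allows up to 3 counts.

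The members and the 9 gene lists were chosen with earlier results of these data known. Members entered the fit with all genes; how many passed is counted, and no p-value of a member is given. Of the list genes, 1 is not reported here. From each list up to 4 genes passing against WT with a mean of at least 1 CPM were named by size of change, and for CCL5, CXCL8 and CXCL10 the 3 genes most alike. Positions are hg19 from the authors' tables, and promoters RefSeq GRCh38.p14. The 15 alternatives were other scaling, filters, DESeq2 1.42.0, the 2 groups alone, a replicate block and leaving out each library.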

Additional observations from a re-analysis of the deposited data

How the results depend on the processing

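Of the log2 fold changes of named genes, 2 were of opposite sign and past the threshold without Kashlid replicate 1: CXCL8 in LBD against Kashlid became 0.67, and JUN in Kashlid against WT became -0.28 (-1.30 and 0.33 without Kashlid replicate 2); values that did not pass, such as those of CXCL2 and CXCL3 in Kashlid against WT, against SUN2KO and against LBD, also changed sign when 1 Kashlid library was left out. The number of tested chemokines passing in SUN2KO against WT was 3, and became 5 with no filter, 1 with a filter of 5 CPM in 2 libraries, and 2 to 5 leaving out 1 library; with the replicate block, where libraries share only a number, it was 5, and the block gave 5412, 6457, 5798, 2787, 2134 and 581 genes changed over the 6 comparisons against 5137, 6232, 5611, 2529, 1890 and 408 without it. The correlations of same-numbered libraries' deviations from their group means ran from -0.0187 to 0.221, and no label gives a shared batch. The stricter filter leaves CCL5, CXCL8 and CXCL2 tested, of which 2, CCL5 and CXCL8, passed against WT and against SUN2KO in Kashlid and in LBD. In LBD against Kashlid, 1 chemokine passed with no filter and 0 to 2 leaving out 1 library; 775 genes changed with no filter, 129 in a fit of these groups alone and 129 to 839 leaving out 1 library, and 12 genes of the lists with no filter and 1 to 22 leaving out 1 library, against 6. Leaving out 1 library gave 1186 to 2469 genes changed in Kashlid against SUN2KO, 884 to 2386 in LBD against SUN2KO, and 36 to 60 genes of the lists, against 55, in Kashlid against SUN2KO. The cause of these changes was not tested. DESeq2 called 4044, 5096 and 4460 genes against WT, and did not call CXCL8, BIRC3, SOCS3, IL1A, CSF1, JUNB, CEBPD and SDC4 in LBD, NFKBIZ, ZFP36 and ZFP36L1 in Kashlid, or JUN and SDC4 in SUN2KO; its counts were 5 of the cytokine list in LBD, 4 of the decay list in Kashlid and 1 of the AP-1 and C/EBP list in each group. Depth limits CXCL10 and CXCL11 in SUN2KO and the 4 chemokines that failed the filter.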
